A study of Mus musculus with 10 samples.

Results

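The Mu class glutathione transferases of the mouse, Gstm1 to Gstm7, were followed in livers of humanized mice given MI-883. The study describes MI-883 as an agonist of the human nuclear receptor CAR and an antagonist of the related receptor PXR. All 7 genes were taken by name from the 16647 genes of a count table, in which genes carry Entrez numbers, and all 7 passed the filter on low counts, as did 13219 genes in all. The table holds 5 control and 5 MI-883-treated livers. Both groups were males of the PXR-CAR-CYP3A4/3A7 line, in which human genes stand in for the mouse receptors and Cyp3a genes, and both received a high-fat diet (HFD) from an age of 10 to 15 weeks. After 8 weeks on HFD, MI-883 at 5 mg/kg or its vehicle of DMSO, PEG300 and corn oil was given by oral gavage 3 times per week for 4 weeks. The samples are whole pieces of liver, so that a change in RNA per cell and a change in the number of cells of a type cannot be told apart.

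Glutathione transferases join the tripeptide glutathione to electrophilic compounds, which makes them more water-soluble and ready for export and for further processing to mercapturates. The Mu class is one of several cytosolic classes, is abundant in rodent liver, and is known for induction by xenobiotics through CAR, PXR and the oxidant sensor Nrf2. Its genes lie side by side in a cluster and code for proteins so alike that their subunits can form mixed dimers.

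In GRCm38, the cluster spans 149326 bases of chromosome 3 (chr3:107895854-108045179). Gstm5 (chr3:107895854-107898685) lies at its left end on the plus strand. Gstm7 (chr3:107926334-107931877), Gstm6 (chr3:107938847-107953641), Gstm3 (chr3:107963696-107969174), Gstm2 (chr3:107981702-107986420), Gstm1 (chr3:108012250-108017973) and Gstm4 (chr3:108030571-108045179) follow on the minus strand. The gaps between neighbouring members were 6969 to 27648 bases. Aligned over their coding sequences, Gstm1 and Gstm3 were the most alike of the 21 pairs, with 89.5% identical bases, and Gstm3 and Gstm5 the least, with 69.7%.

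The stretches just upstream of the starts are shown for Gstm3, Gstm2 and Gstm1, the members with the largest rise after treatment, and for Gstm5, which did not pass the test. They are taken from RefSeq for GRCm38.p6, run 5′ to 3′ on the strand of the gene, and end before the outermost start annotated in RefSeq or GENCODE. Capitals mark matches, on either strand, to a set of short motifs.
Gstm3, chr3:107969284-107969424, minus strand: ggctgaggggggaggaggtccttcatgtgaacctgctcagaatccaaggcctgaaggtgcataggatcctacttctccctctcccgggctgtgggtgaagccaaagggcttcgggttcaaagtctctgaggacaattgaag
Gstm2, chr3:107986454-107986670, minus strand: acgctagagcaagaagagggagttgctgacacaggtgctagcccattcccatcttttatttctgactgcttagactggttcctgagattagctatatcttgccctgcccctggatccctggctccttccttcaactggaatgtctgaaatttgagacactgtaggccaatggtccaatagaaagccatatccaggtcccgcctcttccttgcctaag
Gstm1, chr3:108017974-108018223, minus strand: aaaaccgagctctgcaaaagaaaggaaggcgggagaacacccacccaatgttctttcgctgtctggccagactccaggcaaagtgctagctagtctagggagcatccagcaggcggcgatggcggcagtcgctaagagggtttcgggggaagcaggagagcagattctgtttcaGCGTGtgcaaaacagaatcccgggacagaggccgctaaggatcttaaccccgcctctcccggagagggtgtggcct
Gstm5, chr3:107895604-107895820, plus strand: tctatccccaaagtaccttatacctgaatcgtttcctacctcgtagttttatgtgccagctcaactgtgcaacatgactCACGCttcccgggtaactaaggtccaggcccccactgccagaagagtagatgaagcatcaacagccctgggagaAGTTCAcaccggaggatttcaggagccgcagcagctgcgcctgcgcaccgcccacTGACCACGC

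The motifs searched were TGACNNNGC, the core of the antioxidant response element to which Nrf2 binds, AGGTCA and AGTTCA, half-sites of nuclear receptors, GCGTG, the core of the xenobiotic response element, and TATAAA. RefSeq gives 12 start windows for the 7 genes, each of 250 bases upstream. Those of Gstm1, Gstm4 and Gstm7 overlap within the gene, so the 12 are not separate stretches. TGACNNNGC was in 2 of the 12, as TGACCACGC for Gstm5, 42 bases before its start, and as TGACAAAGC for Gstm7, 129 bases before one of its starts. It was in 10.2% of the 32851 windows of all genes. AGGTCA was in none of the 12 (14% of all windows) and AGTTCA was in 1, that of Gstm5 (11.8%). GCGTG was in 3 windows (28.2%), 1 of Gstm5 and 2 of Gstm1 that overlap and hold the same site. In Gstm5 one of its matches lies inside the match to TGACNNNGC. TATAAA was in 2 windows, of Gstm1 and Gstm7 (12.4%). No window of Gstm2, Gstm3, Gstm4 or Gstm6 held any of the 5 motifs.

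Total counts per library lay between 23513665 and 36221514. The summed level of 8 hepatocyte markers, led by Alb, was 80898 to 92998 CPM (counts scaled to a common library size by TMM) in control livers and 71304 to 82551 CPM in MI-883-treated livers, and none of the 8 passed the edgeR test (2 at an unadjusted p under 0.05, none by DESeq2). Cyp2b10, the classical target of CAR in mouse liver and a check of the treatment labels, was at 24.4 to 44.3 CPM in control livers and at 634.1 to 1375 CPM in treated ones. Groups were compared with the quasi-likelihood test of edgeR over all tested genes, with Benjamini-Hochberg adjusted p-values and a threshold of 0.05. The exact two-sided permutation test of 5 livers against 5 can give no p under 0.00794.

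Of the 7 Gstm genes, 4 rose after MI-883 treatment and none fell by edgeR, nor did any fall by DESeq2 or at an unadjusted p under 0.05. Over all tested genes, 1.03% passed the edgeR threshold, 0.764% as higher and 0.265% as lower. The share of all tested genes at an unadjusted p under 0.05 was not determined. Counts of list genes at that threshold therefore have no background beside them and are given as a description only. Such a gene can be far from passing after adjustment, as was Chac1 of glutathione recycling (edgeR adjusted p = 0.313). These counts are therefore not taken as a sign of a change in a list. Gstm3, Gstm2, Gstm1 and Gstm4, which follow one another in the right-hand part of the cluster, were the members that rose, while Gstm5, Gstm7 and Gstm6 to their left did not pass. In the same 4 genes the groups did not overlap, and this held, upward, in 2.05% of tested genes. The median log2 fold change was 0.59 over the 7 members and 0.005 over all tested genes. By the Wald test of DESeq2, 5 members were higher, with Gstm6 as the fifth, against 2.2% of tested genes.

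**Figure D1:**
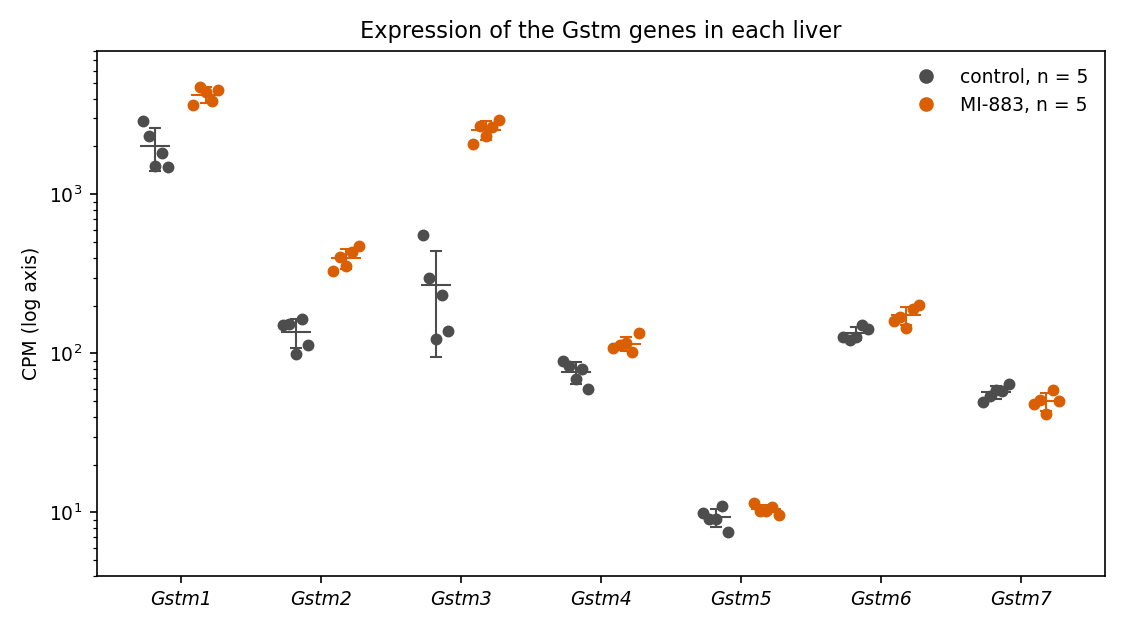
CPM of each Gstm gene (log axis) in every control liver (grey) and every MI-883-treated liver (orange), with the replicates in order within each group. Horizontal marks and bars give mean and S.D. of 5 livers. The groups are apart for Gstm1 to Gstm4 and overlap for Gstm5, Gstm6 and Gstm7, and the 5 control values of Gstm3 are the most spread.

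Gstm3 (Entrez 14864), a Mu class enzyme known for strong induction by xenobiotics in mouse liver, showed the largest change of the 7. The control livers, replicates 1 to 5, had 551.5, 298.7, 122.6, 234.1 and 138.1 CPM. The MI-883-treated livers had 2059, 2676, 2336, 2670.5 and 2956 CPM. The lowest treated liver was thus far above the highest control liver. On the log2 scale the treated livers were much closer to each other than the controls, with an S.D. of 0.203 against 0.88. In CPM the S.D. was larger in treated livers, at 346.8 against 173.6. The log2 fold change was 3.24 (95% confidence interval 2.47 to 4.01, edgeR adjusted p = 0.000526).

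Gstm2 (Entrez 14863), another cytosolic Mu class enzyme and the next gene of the cluster, had 151.3, 152.0, 99.6, 163.7 and 112.3 CPM in control livers. In MI-883-treated livers it had 329.6, 403.9, 352.2, 430.9 and 471.0 CPM. Every treated liver was above 2 times the highest control value. The log2 fold change was 1.55 (95% confidence interval 1.24 to 1.86, edgeR adjusted p = 0.000112), with the lowest p of the members.

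Gstm1 (Entrez 14862), the major Mu class enzyme of mouse liver, had 2881, 2323, 1512, 1831 and 1481 CPM in control livers. After treatment the values were 3657, 4755, 4434, 3849 and 4520 CPM. The groups did not overlap, although control replicate 1 came closer to the treated livers than any other control. The log2 fold change was 1.08 (95% confidence interval 0.70 to 1.46, edgeR adjusted p = 0.00978).

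Gstm4 (Entrez 14865), at the right end of the cluster, had 89.9, 83.3, 69.4, 79.7 and 59.7 CPM in control livers and 108.3, 113.4, 115.7, 102.4 and 134.1 CPM after treatment. The groups were apart, by a narrower gap than in the other members that rose. The log2 fold change was 0.59 (95% confidence interval 0.35 to 0.82, edgeR adjusted p = 0.0217). This call lay close to the threshold. It was lost without control replicate 3 (adjusted p = 0.0644), control replicate 4 (0.0527), MI-883 replicate 2 (0.0566) or MI-883 replicate 5 (0.0636). It held in the other 6 of 10 edgeR fits that each leave out 1 liver, and the log2 fold change was 0.51 to 0.65 in all 10. Calls over all genes fell from 136 to 81, 75, 70 and 62 in the fits that lost it. They also fell to 68 without control replicate 5, where the Gstm4 call held. Gstm1, Gstm2 and Gstm3 passed in all 10, with adjusted p-values of at most 0.0375.

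Gstm6 (Entrez 14867) had 126.8, 121.3, 126.2, 150.9 and 142.9 CPM in control livers and 160.6, 170.3, 145.2, 188.9 and 202.7 CPM after treatment. MI-883 replicate 3 fell within the control range and the other 4 treated livers lay above it. The log2 fold change of 0.38 (95% confidence interval 0.17 to 0.59) did not pass (edgeR adjusted p = 0.0916), whereas it passed with DESeq2 (adjusted p = 0.0149) and in edgeR with scaling to total counts (log2 fold change 0.42, adjusted p = 0.0307). The exact permutation test of Gstm6 alone gave p = 0.0159, with no adjustment.

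Gstm5 (Entrez 14866), the divergent member, known chiefly from brain and testis, was low in every liver. It had 9.92, 9.06, 9.11, 10.9 and 7.5 CPM in control livers and 11.5, 10.2, 10.2, 10.8 and 9.61 CPM after treatment. The groups overlapped, with a log2 fold change of 0.17 (95% confidence interval -0.06 to 0.39, edgeR adjusted p = 0.463). GENCODE places an antisense gene over the start of Gstm5, and the strand setting of the counting is not given in the sources used here, so reads of both cannot be told apart.

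Gstm7 (Entrez 68312) was the member with a negative estimate. It had 49.6, 53.6, 59.1, 57.6 and 63.9 CPM in control livers and 48.3, 51.0, 41.4, 59.1 and 50.2 CPM after treatment. The groups overlapped and the log2 fold change was -0.18 (95% confidence interval -0.39 to 0.02, edgeR adjusted p = 0.372).

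Reads of such similar genes can be hard to place. Of all 100-base stretches in annotated transcripts of Gstm3, 13.8% also occurred in transcripts of other genes, most often in the pseudogene Gm8834 (7.43%) and less often in Gstm6 (2.15%) and Gstm1 (1.65%). The share was 5.86% for Gstm1, 1.1% for Gstm6 and 0.357% for Gstm2. Gstm4, Gstm5 and Gstm7 shared no such stretch. At 150 bases, the read length given in the study's methods, shared stretches remained in Gstm3 alone, at 3.44%, and only with Gm8834. How reads with several placements were counted is not given in the sources used here, and the part of shared reads in the fold changes of Gstm1, Gstm3 and Gstm6 was not tested.

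The members differed from each other in their response. For each pair, the log2 ratio of the 2 genes within each liver was compared between the groups by the exact two-sided permutation test, with Benjamini-Hochberg adjustment over the 21 pairs. The ratio changed in 18 pairs, of which 15 had groups that did not overlap (exact p = 0.00794, adjusted p = 0.0111). Ratios that share a gene are not independent, so these counts of pairs are a description. Gstm3 rose more than each of the other 6 members: the ratio of Gstm1 to Gstm3 changed by -2.33 ± 0.227 (SE) on the log2 scale and that of Gstm2 to Gstm3 by -1.89 ± 0.297. Gstm6 and Gstm7, neighbours in the cluster that did not pass on their own, also parted, by 0.56 ± 0.0824.

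Other differences were less firm. The ratio of Gstm1 to Gstm2 changed by -0.44 on the log2 scale (exact p = 0.0317, adjusted p = 0.037), and this was lost in 7 of the 10 sets that leave out 1 liver, those without control replicate 1, 2, 3 or 5 or MI-883 replicate 1, 4 or 5. The ratio of Gstm1 to Gstm6, which changed by 0.75 (exact p = 0.0238, adjusted p = 0.0294), was lost without control replicate 2, 3, 4 or 5 or MI-883 replicate 1, 2 or 3. The pairs that did not pass were Gstm4 with Gstm6 (difference 0.22 ± 0.165, exact p = 0.27), Gstm5 with Gstm6 (-0.20 ± 0.149, exact p = 0.246) and Gstm5 with Gstm7 (0.36 ± 0.16, exact p = 0.0556).

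**Figure D2:**
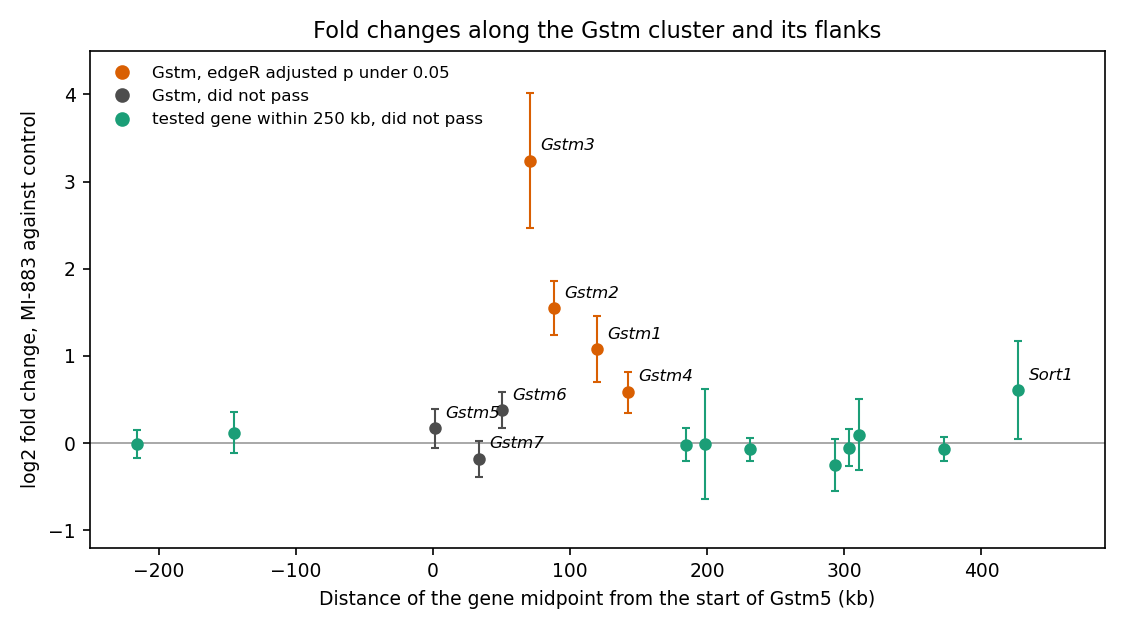
Log2 fold change (MI-883 against control, edgeR) of the Gstm genes and of the tested genes within 250 kb of the cluster, against the distance of the gene midpoint from the start of Gstm5 in kb. Bars give 95% confidence intervals of 5 against 5 livers. The members that passed (orange) lie next to each other, with Gstm3 highest at 3.24, and none of the 10 flanking genes (green) passed.

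None of the genes beside the cluster passed the test. Within 250 kb of its ends the table lists 13 genes, of which 10 were tested in edgeR, with log2 fold changes of -0.25 to 0.61 and a median of -0.017. The highest was Sort1, a sorting receptor, at 0.61 (edgeR adjusted p = 0.277), at the far right edge. At an unadjusted p under 0.05 it was the single flanking gene, and by DESeq2 none of the 10 passed either. The nearest tested genes were Csf1, a macrophage growth factor, on the left at 0.12 and Ampd2, an AMP deaminase, on the right at -0.022.

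Scaled by exon length, the 7 genes could be compared in level. In control livers, Gstm1 was at 1362 ± 404 CPM per kb of exon (S.D., n = 5) and Gstm3 at 205.2 ± 132. Gstm2 was at 80.9 ± 16.7, Gstm6 at 67.2 ± 6.35, Gstm4 at 44.8 ± 7.0, Gstm7 at 35.5 ± 3.39 and Gstm5 at 7.28 ± 0.991. The order of the means was the same after treatment and with the longest coding transcript as the length. Among controls, the ranges of neighbours in this order overlapped for Gstm3 and Gstm2, for Gstm2 and Gstm6, and for Gstm4 and Gstm7, while Gstm1 was apart from Gstm3, Gstm6 from Gstm4, and Gstm5 from Gstm7. In control replicates 3 and 5 Gstm6 was above Gstm2, and in control replicate 5 Gstm7 was above Gstm4. Within each control liver Gstm3 was above Gstm2.

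After treatment Gstm1 was at 2881 ± 317 and Gstm3 at 1937 ± 264 CPM per kb of exon, and Gstm2, at 236.8 ± 34.2, was apart from Gstm6 at 87.3 ± 11.4. Gstm3 made up 10.5% ± 3.53 of the length-scaled level of all 7 genes in control livers and 36.9% ± 2.33 in treated ones, and the ranges of 7.04% to 16.0% and 34.4% to 39.9% were far apart. The share of Gstm1 went from 75.7% ± 1.56 to 54.9% ± 2.9, although its own level rose. The share of Gstm2 stayed within the spread, at 4.63% ± 0.864 and 4.51% ± 0.406. Of all counts in a library, the 7 genes took 0.267% ± 0.0896 in control livers (0.190% to 0.404%) and 0.764% ± 0.0847 in treated ones (0.658% to 0.863%).

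**Figure D3:**
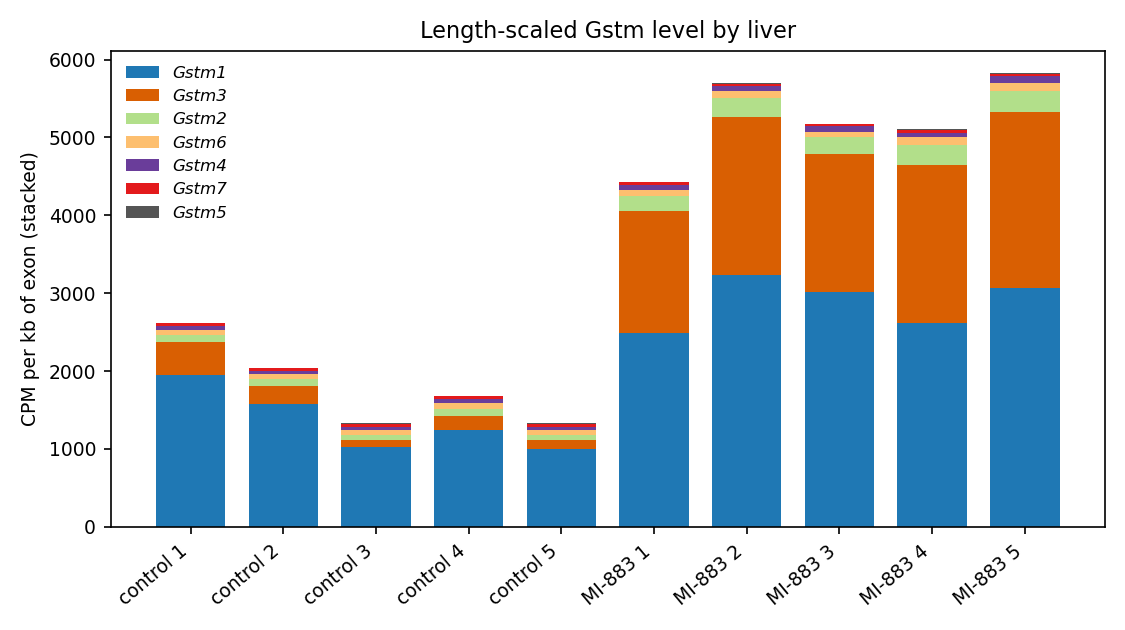
Level of the Gstm genes in each liver, in CPM per kb of exon, stacked by gene. Gstm1 (blue) is the largest part in all 10 livers, and Gstm3 (orange) grows from at most 16.0% of the stack in control livers to at least 34.4% in MI-883-treated livers.

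The control livers differed widely in Gstm3. The S.D. of its log2 CPM over the 5 controls was 0.88, more than in 98.0% of tested genes, whose median was 0.167, and the highest control was 4.5 times the lowest. Among treated livers the S.D. was 0.203, near the median of 0.185 over tested genes. Gstm1 was next, with an S.D. of 0.413 in controls (above 84.8% of tested genes) and 0.162 after treatment. Gstm2 had 0.314 and 0.21, Gstm4 0.234 and 0.146, and Gstm5 0.20 and 0.0974. Gstm6 and Gstm7 went the other way, from 0.134 to 0.19 and from 0.139 to 0.183. Without control replicate 1 the S.D. of Gstm3 in controls was 0.612, and it was 0.829 to 1.02 without any other control liver.

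Gstm1, Gstm3 and Gstm4 were all highest in control replicate 1, followed by replicates 2 and 4. Replicate 1 was the highest control in 21.8% of all tested genes. Gstm7 ran in the opposite order at this end, with its lowest control value in replicate 1. Cyp2b10 did not follow Gstm3: it had 29.2 CPM in control replicate 1 and 44.3, 24.4, 43.8 and 40.8 CPM in replicates 2 to 5. Gsta1, an Alpha class transferase, did, with 35.4, 17.7, 3.64, 8.54 and 2.90 CPM in control replicates 1 to 5 against 30.9 to 52.1 CPM in treated livers. Of 11606 genes compared over these same livers, Gsta1 had the deviations closest to those of Gstm1, so its likeness is no separate observation.

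The summed level of bile duct cell markers also moved with this order, while the markers were not compared with it one by one. The summed level of the 5 markers (Krt19, Krt7, Epcam, Sox9 and Spp1, none at 0 throughout) was 116.5, 72.8, 27.4, 34.5 and 25.0 CPM in control replicates 1 to 5, and most of it was Spp1 (49.4 ± 37.7 CPM, S.D., n = 5). In treated livers the sum was 35.1 to 189.9 CPM, and none of the 5 passed the edgeR test between the groups (1, Sox9, at an unadjusted p under 0.05, none by DESeq2), with log2 fold changes of 0.19 to 0.83 and a median of 0.55. The part of these cells in the spread of Gstm3 was not tested. Among treated livers the sum was highest in replicate 3 (189.9 CPM), where Gstm3 was at 2336 CPM, below the treated median of 2670.5 CPM. Control replicate 1 was also the lowest control in the summed level of 8 periportal genes (4948 CPM, others 6739 to 7990 CPM), of 8 pericentral genes (10132 CPM, others 12375 to 15143 CPM) and of 5 endothelial markers (96 CPM, others 126.7 to 131.4 CPM), and the highest in that of 8 Kupffer cell and leukocyte markers (281.5 CPM, others 189.8 to 239.6 CPM).

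**Figure D4:**
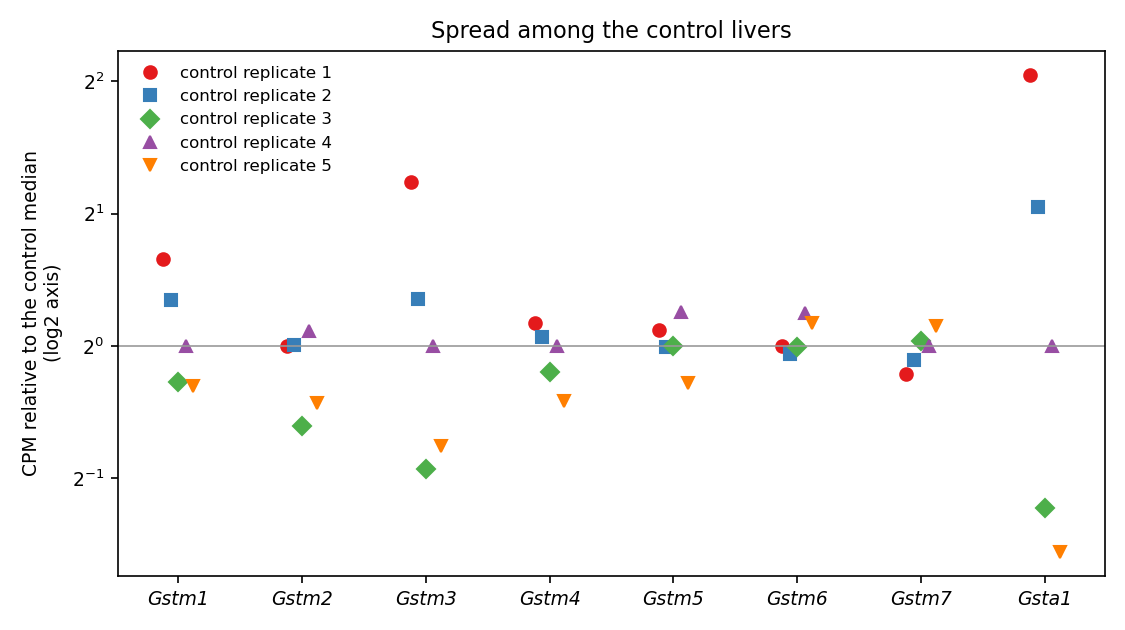
CPM of each Gstm gene and of Gsta1 in the 5 control livers, relative to the control median of that gene (log2 axis). Control replicate 1 (red circles) is at the top for Gstm1, Gstm3, Gstm4 and Gsta1 and at the bottom for Gstm7, and Gstm5, Gstm6 and Gstm7 stay close to 1.

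In deviations from the group means over the 10 livers, the highest correlations were those among Gstm1, Gstm3 and Gstm4. Of 21 pairs, Gstm1 and Gstm3 were closest (Pearson r = 0.94, exact permutation p = 0.00243, adjusted over the pairs 0.051, and Spearman rho = 0.93, exact permutation p = 0.00674, adjusted 0.111). Without the 2 livers farthest from the median of Gstm1, r was 0.85. Gstm1 and Gstm4 (r = 0.84, rho = 0.85) and Gstm3 and Gstm4 (r = 0.80, rho = 0.78) followed, with adjusted permutation p-values of 0.111 to 0.162. Gstm7 had negative values with Gstm1 (r = -0.63) and Gstm4 (r = -0.64) and a positive one with its neighbour Gstm6 (r = 0.68). No pair passed after adjustment.

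For each member, the genes with the most similar deviations were sought among 11606 genes of at least 1 CPM on average. For Gstm1 they were Gsta1 (r = 0.96), Robo1 (0.943) and Sap30 (0.936), and for Gstm3 Prom1 (0.948), Gsta1 (0.938) and Wdfy1 (0.90). For Gstm4 they were Ugdh, the enzyme that makes UDP-glucuronic acid (0.974), Cited2 (0.929) and 9130409I23Rik (0.913). For Gstm2 they were Zfyve16 (0.947), Trmt10a (0.946) and Pir (0.927). For Gstm7 they were Prodh, the first enzyme of proline breakdown (0.982), Aldh1l1, an enzyme of folate metabolism (0.979), and Macrod1 (0.974). For Gstm6 they were Dbr1 (0.949), Paip2b (0.929) and Klhl22 (0.925), and for Gstm5 Nxt1 (0.906), Ica1 (0.892) and Sh3glb2 (0.89). These are the extremes of many correlations over 10 livers and are given as a description. Of the named genes, Prom1, known also as a marker of progenitor and bile duct cells, was the one that passed the test between the groups, rising from 0.65 to 11.1 CPM (log2 fold change 4.0, edgeR adjusted p = 0.000109).

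Of 14 other cytosolic transferases tested, 1 rose and none fell by edgeR, with a median log2 fold change of 0.13. At an unadjusted p under 0.05 there were 8, with Gsta1, Gstp1, Gstp2 and Gstt3 higher and Gstp3, Gstt2, Gsto1 and Gstk1 lower, and 3 passed by DESeq2. The gene that rose was Gstt3, a Theta class enzyme, which rose from 122.2 ± 23.4 to 237.4 ± 60.6 CPM (S.D., n = 5, log2 fold change 0.96, edgeR adjusted p = 0.0197), and no gene of the list passed without control replicate 3 or MI-883 replicate 2. Gsta3, the main Alpha class gene by counts, was at 1971 ± 227 and 1923 ± 290 CPM. Gstp1, the Pi class enzyme, had a log2 fold change of 0.55 that did not pass (edgeR adjusted p = 0.146, DESeq2 adjusted p = 0.0286). Gsta1 had 1.58 ± 0.508 (SE) and did not pass (edgeR adjusted p = 0.168), with 4 of 5 treated livers above every control.

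Of 4 membrane-bound transferases tested, Ptges, which makes prostaglandin E, rose from 1.78 ± 0.737 to 6.89 ± 0.82 CPM (log2 fold change 1.94, edgeR adjusted p = 0.000911). Mgst1, the abundant microsomal enzyme of liver, was at 4920 ± 629 and 5140 ± 524 CPM (edgeR adjusted p = 0.818).

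None of 12 tested genes of glutathione synthesis and recycling passed the edgeR threshold, and their median log2 fold change was 0.012. Gclc, the catalytic subunit of the rate-limiting enzyme, was at 224.3 ± 39.2 and 263.8 ± 67.0 CPM, and Gclm, its modifier subunit, at 133.1 ± 10.1 and 139.0 ± 6.47 CPM. By unadjusted p under 0.05, 2 of the 12 passed, Gsr as higher and Chac1 as lower, and by DESeq2 none did.

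Of 16 genes for export of conjugates and for mercapturate formation, 3 rose and none fell by edgeR, with a median of 0.22. At an unadjusted p under 0.05 there were 6, of which Ggt6 was lower (-0.24) and the others higher, and 4 passed by DESeq2. Abcc4, an efflux transporter of the basolateral membrane, rose from 3.43 ± 0.703 to 18.9 ± 4.06 CPM (log2 fold change 2.45, edgeR adjusted p = 7.2e-06). Abcc3, another basolateral transporter, rose by 0.46 on the log2 scale (edgeR adjusted p = 0.0282) and Anpep, a cell-surface aminopeptidase, by 0.73 (edgeR adjusted p = 0.0198). Without control replicate 2 or 4 or MI-883 replicate 2 or 5, 1 gene of the list passed. Ggt1, which starts the breakdown of glutathione conjugates, had 0 to 3 counts per control liver and 5 to 24 per treated liver, and passed by DESeq2 (adjusted p = 0.00506) and not by edgeR (adjusted p = 0.0639). Abcc2, which exports conjugates into bile, had 0.26 (edgeR adjusted p = 0.455).

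Of 18 genes for Nrf2 itself and its usual targets outside glutathione metabolism, 1 rose, the epoxide hydrolase Ephx1, from 523.9 ± 86.0 to 800.1 ± 44.5 CPM (log2 fold change 0.61, edgeR adjusted p = 0.0182), and no gene of the list passed without control replicate 3 or 4 or MI-883 replicate 5. The log2 fold changes of the 18 were -0.02 to 0.61 with a median of 0.29, 9 had an unadjusted p under 0.05, and 3 passed by DESeq2. Nqo1, a quinone reductase, had 13.1, 13.1, 8.54, 6.98 and 8.91 CPM in control livers and 13.7, 14, 19, 10 and 20.4 CPM after treatment, with overlapping groups (edgeR adjusted p = 0.192). Of 9 usual targets of CAR, 6 rose by edgeR and 7 by DESeq2 or at an unadjusted p under 0.05. The 6 were Cyp2b10, Cyp2c29, Cyp2c37, Cyp2c55, Ces2a and Gadd45b, with a median of 1.02 over the 9.

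Genes of the liver lobule's zones are given because some transferases are zoned. Of 8 pericentral genes none passed by edgeR (3 at an unadjusted p under 0.05), with a median of 0.30, and 1 passed by DESeq2, Glul, which makes glutamine (log2 fold change 0.27, DESeq2 adjusted p = 0.0128). Of 8 periportal genes, Hal, a histidine-degrading enzyme, fell by 0.46 on the log2 scale (edgeR adjusted p = 0.0264), their median was -0.29, and 5 had an unadjusted p under 0.05. The 5 were Hal, Sds, Ass1 and Gls2, which were lower, and Cdh1, which was higher (log2 fold change 0.93). No gene of the list passed as lower in 7 of the 10 fits that leave out 1 liver, those without control replicate 2, 3, 4 or 5 or MI-883 replicate 2, 3 or 5. Markers of Kupffer cells and leukocytes (8 genes), endothelial cells (5) and stellate cells (5) held no gene that passed by edgeR or DESeq2 (0, 2 and 1 at an unadjusted p under 0.05), and the summed levels of each overlapped between the groups.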

How the data were processed

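RNA of 10 livers was sequenced from directional libraries. Per the labels and the study's methods, the authors trimmed reads (fastp 0.23.0), aligned them to mm10 (STAR) and assigned them to genes (featureCounts); other versions, the annotation and the strand setting are not given in the sources used here. The authors deposited raw counts per Entrez gene, without normalization. Of 16647 listed genes, 16644 were matched to RefSeq (GRCm38.p6), which gave symbols and positions.

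Livers were grouped by treatment label. According to the study's methods, each liver came from another animal. Genes whose sum over the 10 livers reached 60 counts (3428 did not) were tested with edgeR 4.0.16 in R 4.3.3 (TMM, quasi-likelihood, condition only), on adjusted p under 0.05. CPM are counts scaled to a common library size by TMM, and log2 CPM used a prior count of 2. The standard error is the log2 fold change divided by the square root of F. Length-scaled values used the union of GENCODE vM21 exons. Alternatives were DESeq2 1.42.0 (Wald test, no independent filtering), other scalings and filters, the replicate number as a block, and leaving out each liver. In simulated counts for this comparison (13148 genes), edgeR recovered 77.6% of genes changed by 1 and 98% of those changed by 2 on the log2 scale. It made 4.4% false calls. DESeq2 recovered the same shares with 8.9% false calls. The simulation was a single set of counts drawn with dispersions estimated by edgeR, so it cannot rank the tools. Genes that passed by DESeq2 alone are taken as less certain because edgeR, the main test, did not pass them.

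The Gstm genes and the gene lists were chosen with earlier results of these data known. Named genes are all members, the list genes that passed or otherwise up to 4 of highest CPM in a list, tested genes within 250 kb, the 3 genes closest to each member in deviations, and Cyp2b10. Not every list gene under this rule is given here, and Gsta1, Nqo1, Gstp1, Gclm, Abcc2, Glul, Gsr, Chac1, Sox9, Ggt1, Ggt6, Gstp2, Gstp3, Gstt2, Gsto1, Gstk1, Sds, Ass1, Gls2, Cdh1 and the genes of the next section were named after their values were seen.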

Additional observations from a re-analysis of the deposited data

How the results depend on the processing

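Gstm1, Gstm2 and Gstm3 kept direction and call under every alternative run, with adjusted p-values of at most 0.0375, 0.000645 and 0.00413. Gstm4 (0.59) lost its call with the replicate number as a block (0.59, adjusted p = 0.0696), and leaving out 1 liver gave 0.51 to 0.65. Gstm6 passed with DESeq2 (0.38) and with total counts (0.42). In exact tests without 1 liver, Gstm5 ranged from 0.10 to 0.24 and Gstm7 from -0.25 to -0.12, and an exact permutation p under 0.05 appeared for Gstm5 without control replicate 4 (p = 0.0317) and for Gstm7 without control replicate 1 or MI-883 replicate 4 (p = 0.0476 in both). Of the list genes called higher, DESeq2 gave 3 other cytosolic transferases, 3 Nrf2 targets and 1 pericentral gene. The filter of 60 counts in every liver left 0 membrane-bound transferases, since Ptges was then not tested. With the replicate block 0 Nrf2 targets were higher and 0 periportal genes lower. Leaving out 1 liver gave 0 to 2 other cytosolic transferases, 1 to 3 export genes, 0 to 3 Nrf2 targets and 0 to 2 periportal genes. The cause of these shifts was not tested. Over all genes, 136 calls became 463 with DESeq2, 89 with the replicate block and 62 to 208 without 1 liver. Same-numbered livers deviated together with correlations of -0.12 to 0.36, so the numbers were not taken as a pairing, and no other call of a member changed with the block. Total counts shifted the median log2 fold change by 0.044. Depth limits Gstm5 most, with at most 378 counts in a control liver, against 33756 or more for Gstm1.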

Other observations

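Besides Ggt1, several genes around glutathione conjugation passed by the Wald test of DESeq2 and not by edgeR. Gstp1 went from 524.6 ± 117 to 769.5 ± 152 CPM (S.D., n = 5) and Gstp2, which is nearly identical in sequence to it and so uncertain in counts, from 10 ± 2.67 to 16.6 ± 4.35 CPM (DESeq2 adjusted p = 0.0286 and 0.0174). Ugdh, which makes the cofactor of glucuronidation, went from 218.9 ± 46.1 to 312.9 ± 45 CPM (DESeq2 adjusted p = 0.0156). Tkt, an enzyme of the pentose phosphate pathway, went from 192.2 ± 24.7 to 235.0 ± 13.7 CPM (DESeq2 adjusted p = 0.0484). Aldh1a1, an aldehyde dehydrogenase induced by CAR, went from 2586 ± 247 to 3808 ± 648 CPM (DESeq2 adjusted p = 0.00033, edgeR adjusted p = 0.0514).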
